A study of Mus musculus with 10 samples.

Results

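Genes of galanin, the corticotropin-releasing hormone binding protein Crhbp, other local peptides and a sulfotransferase were followed through 10 single-cell libraries of mouse pituitary. The 7 genes proposed were Gal, Crhbp, Nmb, Vip, Penk, Nts and Chst8, and the rule asked for a row in every count table. Gal, Crhbp, Nmb, Vip, Penk and Chst8 met it, which made 6 of the 15270 genes with a row in all 10 tables, while Nts had a row in 6 tables only. The genes were chosen by measured values of these same libraries, namely the level of each gene, as unique molecular identifiers (UMIs, 1 per captured RNA molecule) per 10000 UMIs, and the share of cells with a UMI, by library and cell class. Those levels are therefore given as a description, and the tests further on are fits across all genes that carry no independent support for the choice of these genes.

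Every library was labelled as the CD1 strain, and whole-pituitary cells were dissociated without enzymes. The 8-week wild-type groups held 3 female and 3 male libraries, of which replicate 1 of each sex was made with 10x Genomics and replicates 2 and 3 with Drop-Seq, both droplet methods that barcode the RNA of single cells. The other 4 libraries were Drop-Seq libraries of females: 1 from a 13-week virgin, 2 from 13-week lactating mice and 1 from 8-week mt/hGRF transgenic mice, in which the metallothionein promoter drives human growth hormone releasing factor. The 8-week Drop-Seq, transgenic and second lactating libraries were each pooled from a pair of mice, so that 1 library is not 1 mouse, and the study describes its 8-week wild-type mice as sexually naive.

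Galanin is a neuropeptide known in the pituitary for its expression in prolactin cells and its induction by estrogen. Crhbp is a secreted protein that binds corticotropin-releasing hormone and urocortin and limits their action. Neuromedin B (Nmb), vasoactive intestinal peptide (Vip), proenkephalin (Penk, the precursor of the enkephalin opioid peptides) and neurotensin (Nts) are peptides that act on G protein-coupled receptors, and Chst8 encodes a sulfotransferase that adds sulfate to the sugar chains of glycoprotein hormones such as luteinizing hormone. In the anterior pituitary, somatotropes make growth hormone (Gh), lactotropes prolactin (Prl), gonadotropes the gonadotropins, thyrotropes thyrotropin and corticotropes Pomc, which melanotropes of the intermediate lobe make as well.

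On the mm10 (GRCm38) assembly Crhbp lies at chr13:95431371-95444924 and Gal at chr19:3409915-3414544, both on the minus strand and both protein-coding. Nmb (chr7:80902227-80905076, minus strand) overlaps Sec11a on the same strand, so that reads from their shared stretch are uncertain. Penk (chr4:4133531-4138819, minus strand) overlaps A830012C17Rik on the opposite strand. Vip lies at chr10:5639218-5647617 on the plus strand, Nts at chr10:102481756-102490486 on the minus strand and Chst8 at chr7:34674468-34812711 on the minus strand.

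The 250 bases before the RefSeq start of Crhbp and Gal (GRCm38.p6) are shown because these 2 genes carry the sex and hormone patterns below. They span chr13:95444832-95445081 for Crhbp and chr19:3414545-3414794 for Gal, and both are written along the minus strand. Capitals mark a match to AGGTCA, letters that nuclear receptors can bind.
Crhbp: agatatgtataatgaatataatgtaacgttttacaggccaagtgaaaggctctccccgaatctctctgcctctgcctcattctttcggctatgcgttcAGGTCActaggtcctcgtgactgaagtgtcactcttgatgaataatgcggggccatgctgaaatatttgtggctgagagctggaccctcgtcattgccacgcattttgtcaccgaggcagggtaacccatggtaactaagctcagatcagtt
Gal: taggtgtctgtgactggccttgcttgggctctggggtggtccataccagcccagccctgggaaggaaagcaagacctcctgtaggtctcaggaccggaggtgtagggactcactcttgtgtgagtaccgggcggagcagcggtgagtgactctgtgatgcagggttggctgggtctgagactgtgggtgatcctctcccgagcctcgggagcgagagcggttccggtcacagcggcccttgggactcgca
The match in Crhbp lay at -152 to -147 from the start. Both strands of 32851 promoter windows of the same length were searched, of which 14% held AGGTCA, 0.0639% held the palindromic estrogen response element, 1.55% held the cyclic AMP response element TGACGTCA and 12.4% held TATAAA. The estrogen response element shares letters with AGGTCA, and neither it nor TGACGTCA matched any of the 6 genes with a window, which leave out Penk. Vip held 3 TATAAA matches, the nearest at -30 to -25. A match is a description of letters and not a bound site.

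After filtering, 23432 cells were kept, from 978 to 5256 per library, with 960289 to 5080590 UMIs per library and a median of 534 to 1246 UMIs per cell. The 5% of barcodes with the most UMIs held 39.2% and 46.5% of the UMIs of the 10x female and male library, against 19.3% to 24.2% in the Drop-Seq libraries, and 8 pairs of libraries shared barcodes, with 6 shared by the 10x pair and at most 1 in each of 7 Drop-Seq pairs. Nuclear RNA (Malat1, Meg3 and Neat1) made up 4.463% to 15.33% of UMIs. Prl itself ranged widely among the females, with 340.5, 727.4 and 166.5 UMIs per 10000 in 8-week replicates 1 to 3, against 100.4, 107.4 and 103.8 in the males, 338 in the transgenic, 934.4 in the virgin and 1031 and 1279 in the lactating libraries.

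Cells were assigned to classes by marker genes that include no hormone other than Tshb, and a further hormone-rich class held unassigned cells in which 7 hormone genes made up at least 30% of UMIs. The somatotrope-like class (Som) held 3510 cells, the class gated on lactotrope markers (Lac) 1196, the melanotrope-like class (Mel) 1415, the gonadotrope-like class (Gona) 487, the macrophage-like class (MacPh) 978 and the hormone-rich class 2572, while 10545 cells (45%) stayed ungated. Checked against the hormones, Som held 650 to 3460 Gh UMIs per 10000 across libraries, Mel 961 to 2810 Pomc and Lac 216 to 1190 Prl. The Lac cells of the 3 male libraries went against their label, with more Gh than Prl (684 against 216 in replicate 1 and 531 against 403 in replicate 3). In 8-week female replicate 1, which held 293 of the 407 Lac cells of the 8-week females, Lac had less Prl than Som (300 against 618), so Lac is named here by its markers and not as a cell type. The median share of nuclear RNA per cell was 0.431% to 5.2% in the hormone-rich class, against 5.34% to 19.4% in Som and 8.98% to 33.2% in Lac, so the hormone-rich class also stood apart in RNA makeup. A class gated on collagen genes held up to 2700 Prl UMIs per 10000 and is called the collagen-marker class here.

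Of the 6 genes, Crhbp had the widest difference between the sexes, and all but 1 of its UMIs in the kept cells of 8-week wild-type mice came from females. In the 8-week females it stood at 0.288, 0.989 and 0.371 UMIs per 10000 in replicates 1 to 3 (mean 0.55 ± 0.383 SD, n = 3; 113, 95 and 64 UMIs). In the 8-week males it had 0 UMIs in replicates 1 and 2 and 1 UMI in replicate 3 (0.00467 per 10000). The lowest female library lay above the highest male library, and how many of all genes separate in this way was not counted. The 272 female UMIs among 6603987 and the 1 male UMI among 8209147 gave a ratio of 338, with a 95% exact interval of 60.2 to 1.34e+04 that covers counting error only. After each cell was thinned to 300 UMIs, 1.05%, 2.97% and 1.35% of female cells held a Crhbp UMI, and 0% of male cells did in each of the 3 libraries. Outside the kept cells, barcodes below the cell filters held 0.0417 Crhbp UMIs per 10000 in male replicate 2 and 0 in the other male libraries.

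The 13-week females held more Crhbp than the 8-week females. It stood at 0.609 UMIs per 10000 in the transgenic library (145 UMIs), within the range of the 8-week females, at 1.67 in the virgin (460 UMIs) and at 2.85 and 2.7 in the lactating libraries (719 and 1341 UMIs, mean 2.78 ± 0.107 SD, n = 2). The thinned shares of cells with a Crhbp UMI were 4.45% in the virgin and 6.88% and 7.42% in the lactating libraries, and the 1% of the transgenic library lay below all 3 shares of the 8-week females. By level and by thinned share the 2 lactating libraries lay above every other library, and the virgin library lay above all 8-week libraries. The virgin library differs from the 8-week females in age and preparation, which cannot be told apart with 1 library, and the lactating libraries differ from them in parity and lactation too.

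**Figure D1:**
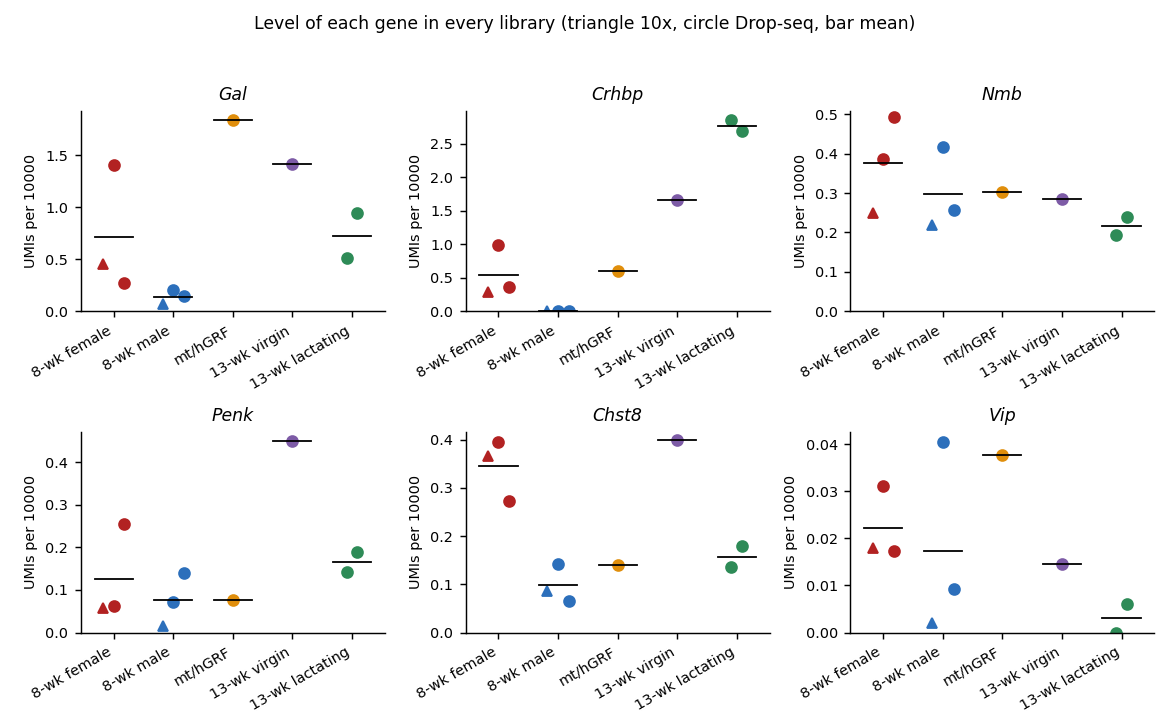
UMIs per 10000 of Gal, Crhbp, Nmb, Penk, Chst8 and Vip (y axis, linear, a scale for each gene) in each of the 10 libraries by group (x axis). Triangles are 10x and circles Drop-Seq libraries, and a bar marks the mean of the group. Crhbp is at or near 0 in the 3 male libraries and highest, at 2.85 and 2.7, in the lactating ones.

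Whether a difference exceeded the spread between libraries was tested with edgeR's quasi-likelihood test on the UMIs summed per library, with Benjamini-Hochberg adjustment over 14088 genes. Of these, 13 genes passed the adjusted threshold of 0.05 between the 8-week sexes (0.0923%), and 1 of the 6 genes followed here was among them. Crhbp fell in males by 8.0 on the log2 scale (SE 0.73, edgeR adjusted p = 0.000192), a size that depends on the prior count because the males held 1 UMI. It passed in every fit that left out 1 library, with log2 values from -9.73 to -7.41. Its counts in female libraries brought Crhbp past the filter on low counts, and its levels had chosen it. These fits therefore give no independent support for the difference. In summed libraries, fewer cells of a type and less RNA per cell cannot be told apart.

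Gal had a lower mean in the males than in the females, and its call depended on the fit. The 8-week females had 0.452, 1.41 and 0.273 UMIs per 10000 (177, 135 and 47 UMIs; mean 0.71 ± 0.609 SD, n = 3) and the males 0.0748, 0.203 and 0.145 (38, 20 and 31 UMIs; mean 0.141 ± 0.0641 SD, n = 3). The groups did not overlap as summed, a separation that was not counted over all genes. Of the 47 UMIs of female replicate 3, 35 came from 1 barcode. With the highest barcode of every library left out, that library stood at 0.0696, inside the male range of 0.0689 to 0.182, and the log2 difference was -2.26 (edgeR adjusted p = 0.968). The fitted difference was -2.31 (log2 male over female, SE 0.54), which missed the threshold (edgeR adjusted p = 0.333). With the replicate number as a block, which pairs the 10x libraries and the 2 Drop-Seq sets, it was -2.0 and passed (edgeR adjusted p = 0.00298). It also passed with DESeq2 (adjusted p = 0.00598) and without female replicate 3 (log2 -2.74, edgeR adjusted p = 0.00874), and without female replicate 2 it was -1.36 (edgeR adjusted p = 0.716).

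Chst8 also had a lower mean in the males, with less spread between libraries than Gal. The females had 0.365, 0.396 and 0.273 UMIs per 10000 (143, 38 and 47 UMIs; mean 0.344 ± 0.064 SD, n = 3) and the males 0.0866, 0.142 and 0.0654 (44, 14 and 14 UMIs; mean 0.098 ± 0.0395 SD, n = 3). Each female library lay above each male library, but the share of all genes with such a separation was not computed. The fitted log2 difference was -1.76 (SE 0.36), with an edgeR adjusted p of 0.152, and with the replicate block it was -1.73 and passed (edgeR adjusted p = 0.00424). DESeq2 gave an adjusted p of 0.053.

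Penk, Nmb and Vip showed no difference between the sexes that passed the test. Penk had 0.0587, 0.0625 and 0.255 UMIs per 10000 in the females and 0.0157, 0.071 and 0.14 in the males, with 23 of the 44 UMIs of female replicate 3 in 1 barcode. The Penk groups overlapped, and the log2 difference was -0.88 (SE 0.43, edgeR adjusted p = 1.00). Nmb had 0.25, 0.385 and 0.493 in the females and 0.22, 0.416 and 0.257 in the males, with 46 of the 112 UMIs of male replicate 1 in 1 barcode. The Nmb groups overlapped as well, with a log2 difference of -0.20 (SE 0.30, edgeR adjusted p = 1.00). Vip was near the limit of detection with 7, 3 and 3 UMIs in the females and 1, 4 and 2 in the males. Nts had 0, 2 and 1 UMIs in the females and 0 and 1 in male replicates 1 and 3, and no fold is given for it.

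In the lactation comparison Crhbp had a higher level and Gal, Penk and Chst8 had lower levels than in the virgin library, but no gene of the 14088 passed the edgeR threshold (0%), so none of the 6 did. At an unadjusted p under 0.05 edgeR called 467 genes, and DESeq2 called 5 after adjustment. Crhbp differed by 0.97 (log2 lactating over virgin, SE 0.52, edgeR adjusted p = 0.999), with 1.67 UMIs per 10000 in the virgin against 2.85 and 2.7. Gal stood at 1.42 in the virgin (392 UMIs) and at 0.512 and 0.945 in the lactating libraries (129 and 469 UMIs), a log2 difference of -0.68 (SE 0.67).

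Penk and Chst8 were both lower in lactation than in the virgin library, and their levels had entered the choice of these genes. Penk stood at 0.449 UMIs per 10000 in the virgin (124 UMIs) and at 0.143 and 0.189 in lactation (36 and 94 UMIs), a log2 difference of -1.16 (SE 0.49, edgeR adjusted p = 0.999). Chst8 stood at 0.399 in the virgin (110 UMIs) and at 0.135 and 0.179 in lactation (34 and 89 UMIs), a log2 difference of -1.07 (SE 0.45, edgeR adjusted p = 0.999). For both genes the virgin library was the higher one, with a level 2 or more times that of either lactating library. Nmb hardly differed, at 0.286 in the virgin against 0.194 and 0.238 (log2 -0.14, SE 0.43). Vip had 4 UMIs in the virgin and 0 and 3 in lactation. With 1 virgin library, its spread was assumed to be that of the other groups.

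The mt/hGRF library held the highest summed Gal level of the 10 libraries, but not the highest share of cells. It had 1.84 UMIs per 10000 (437 UMIs) against the 0.452, 1.41 and 0.273 of the 8-week wild-type females that also served the sex comparison. One barcode held 76 of its UMIs, and without it the level was 1.52. After thinning, 2.61% of its cells held a Gal UMI, against 3.48% in 8-week female replicate 2 and 3.14% in the virgin. The log2 difference was 1.23 (transgenic over wild type, SE 0.65, edgeR adjusted p = 0.659), from 0.63 without female replicate 3 to 2.52 without female replicate 2, and 8 genes passed in this comparison (0.0568%), none of the 6 among them. Chst8 was lower at 0.139 (log2 -1.12, SE 0.52, edgeR adjusted p = 0.607), below all 3 wild-type female libraries, and Penk at 0.0756 lay within their range (log2 -1.13, SE 0.62). Crhbp (log2 -0.09, SE 0.52), Nmb at 0.302 (log2 -0.31, SE 0.43) and Vip with 9 UMIs (log2 0.46, SE 1.10) also lay within or near that range. None of these differences passed the test, and the 1 transgenic library has no replicate.

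**Figure D2:**
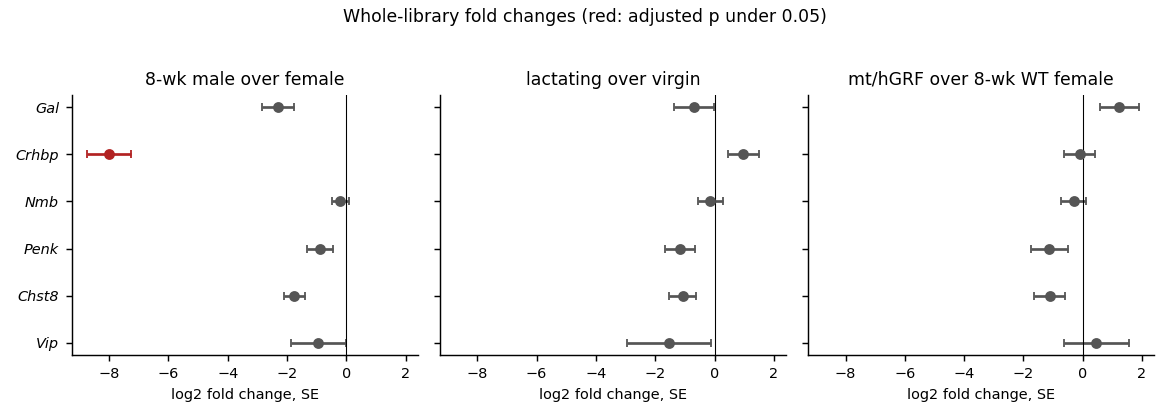
Log2 fold change (x axis, with SE as bars) of 6 genes (y axis) in summed libraries, for 8-week males over females, lactating over virgin and mt/hGRF over 8-week wild-type females. Red marks an edgeR adjusted p under 0.05, which Crhbp reached between the sexes, at -8.0, and no other point did.

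The cell classes that held each transcript are described next, without a test, since these values chose the genes. Gal was concentrated in the hormone-rich class, which over all libraries held 37.5% of Gal UMIs and 10.4% of all UMIs, while 28.2% of Gal UMIs lay in ungated cells and 15.6% in Som. Its level there was 6.39 UMIs per 10000 in the transgenic, 2.82 in the virgin and 1.29 and 2.24 in the lactating libraries. In the 8-week females it was 1.41, 3.61 and 0.345, and in the males 0.241, 0.193 and 0.414. The transgenic library stood highest and each male library lay below every female library but replicate 3. In MacPh, a class that should lack galanin, the level was 0 to 0.184 per 10000, and 0% to 0.87% of thinned cells held a Gal UMI by library, against 0% to 11% of hormone-rich and 0.435% to 2.31% of Som cells, at median depths of 682 to 1830 UMIs per cell in MacPh and 445 to 1160 in the hormone-rich class.

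Galanin was also detected in Som in all 10 libraries. The levels there were 0.704, 0.609 and 1.87 UMIs per 10000 in the 8-week females, 0.185, 0.121 and 0.434 in the males, 1.16 in the transgenic, 1.39 in the virgin and 0.722 and 0.762 in the lactating libraries. Of the 38 Gal UMIs behind the value of female replicate 3, 35 came from 1 barcode, so the order of the sexes there rests on that barcode for this replicate. In Lac the Gal level was lower, from 0 to 1.16 with a median of 0.25 over the 9 libraries with at least 20 Lac cells. The Lac class held 1.81% of Gal UMIs and 4.48% of all UMIs.

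Crhbp was present in the collagen-marker class, in Lac, in the hormone-rich class and in the ungated cells of females. In every female library its level was higher in the collagen-marker class than in Lac, with the values given below. The 1 male UMI was in an ungated cell. In Lac it stood at 1.05, 3.88 and 0.944 UMIs per 10000 in the 8-week females (42, 10 and 9 UMIs), at 1.18 in the transgenic, at 2.96 in the virgin and at 4.59 and 3.98 in lactation. The Lac cells of male replicates 1 and 3 held 0, and replicate 2 had 18 such cells, under the minimum of 20, also with 0. Pooled over libraries, 407 female Lac cells held 61 UMIs and 285 male Lac cells 0. With a floor of 3 counts over the male group, the female level was 11.7 times that floor. The same ratio was 8.79 in Som (17 against 0 UMIs). These ratios take the female counts as exact, so they are not lower bounds. Their dependence on single libraries was not tested. No ratio is given for the hormone-rich class, where 32 of the 34 female UMIs came from replicate 2.

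The hormone-rich class separated the 13-week from the 8-week libraries. Crhbp there stood at 5.25 and 4.22 UMIs per 10000 in lactation and 2.37 in the virgin, against 0.141, 1.3 and 0 in the 8-week females and 0.403 in the transgenic. In the collagen-marker class Crhbp reached 6.61 and 4.58 in lactation, 4.95 in the virgin and 1.15, 5.57 and 1.38 in the 8-week females, and stood at 1.65 in the transgenic. It was 0 in the 33, 18 and 53 such cells of the males, of which those of replicate 1 held the most Prl of this class, 2700 UMIs per 10000. In MacPh it was 0.218 and 0.827 in lactation (3 and 11 UMIs), 0.276 in the virgin (6 UMIs) and 0 or 0.163 elsewhere. Among the 7 female libraries the thinned share of cells with a Crhbp UMI ran from 0.901% to 13.2% in Lac, from 0% to 14.1% in the hormone-rich class, from 1.49% to 8.22% in ungated cells and from 0% to 3.39% in MacPh. By library it was higher in Lac than in the hormone-rich class in all of these but lactating replicate 1, and the ungated cells held 44.9% of all Crhbp UMIs.

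**Figure D3:**
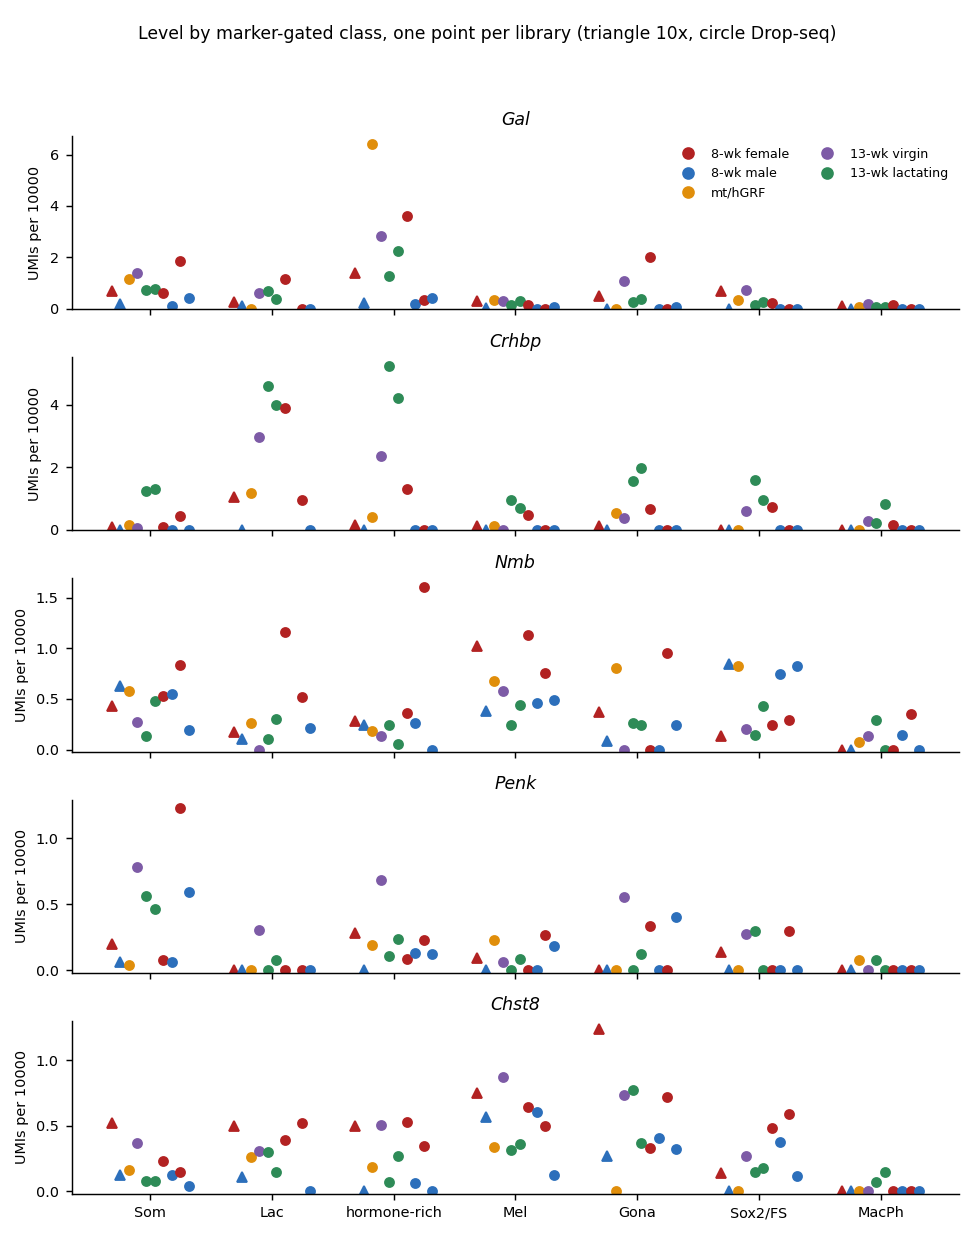
UMIs per 10000 of 5 genes (y axis, linear) by marker-gated class (x axis), with 1 point per library that had at least 20 cells of the class, coloured by group, triangles for 10x and circles for Drop-Seq. Among the classes drawn, which leave out the collagen-marker class, Gal reaches 6.39 in hormone-rich cells of the mt/hGRF library and Crhbp 5.25 in those of lactating replicate 1.

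Nmb was spread over several classes, with 27.1% of its UMIs in ungated cells. Mel held 16.2% of its UMIs and 7.5% of all UMIs, and Som 26.8% of its UMIs and 15.5% of all UMIs. In Mel the level was 1.02, 1.13 and 0.761 UMIs per 10000 in the 8-week females and 0.378, 0.456 and 0.487 in the males, with 20 of the 34 UMIs of female replicate 1 in 1 barcode, so no order of the sexes is read from these values. It was 0.676 in the transgenic, 0.581 in the virgin and 0.247 and 0.442 in lactation. In the small class gated on corticotrope markers, 17 Nmb UMIs in 22 cells of the lactating libraries gave 5.58 per 10000 (95% exact interval 3.25 to 8.94, counting error only), a value picked out after it was seen. Each of those libraries had 11 such cells, under the minimum of 20, with 2.75 and 8.18 per 10000, and the class stood at 0.396 in the virgin (15 cells) and at 0 to 0.474 in 3 8-week libraries of 11 to 16 cells. The highest Nmb barcode of lactating replicate 2 held 13 UMIs. Whether it lay in this small class is not given here, so the 5.58 may rest largely on 1 barcode. In MacPh Nmb stood at 0 to 0.347.

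Penk was concentrated in Som, which held 37.9% of its UMIs and 15.5% of all UMIs, while 22.3% of its UMIs lay in ungated and 19.5% in hormone-rich cells. The Som levels were 0.195, 0.0761 and 1.23 UMIs per 10000 in the 8-week females, where 23 of the 25 UMIs of replicate 3 came from 1 barcode. They were 0.0616, 0.0604 and 0.591 in the males, 0.0413 in the transgenic, 0.777 in the virgin and 0.561 and 0.466 in lactation. The 3 libraries of 13-week mice held 34, 21 and 30 UMIs in Som, and the transgenic library held 1. After thinning, 1.2% of Som cells and 0% of MacPh cells, pooled over libraries, held a Penk UMI.

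Chst8 was found in Mel (18.2% of its UMIs) and in Gona (5.65% of its UMIs against 2.28% of all UMIs), while 29.2% of its UMIs lay in ungated, 15.2% in Som and 14.3% in hormone-rich cells. In Gona, whose gonadotropins carry the sulfated sugars, it stood at 1.24, 0.333 and 0.716 UMIs per 10000 in the 8-week females and 0.267, 0.403 and 0.322 in the males, from 1 to 10 UMIs per library. It was 0.736 in the virgin, 0.776 and 0.369 in lactation and 0 of 52 Gona cells in the transgenic. The female and male values overlapped in Gona. In Mel it was 0.749, 0.643 and 0.495 in the 8-week females, 0.567, 0.608 and 0.122 in the males and 0.871 in the virgin, which was the highest. The thinned share of cells, pooled over libraries, was 2.26% in Gona, 1.41% in Mel and 0.205% in MacPh.

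Vip and Nts could not be placed in a class. All 10 libraries held 36 Vip UMIs, with 14 in ungated cells, 8 in hormone-rich cells and 6 in Som. The highest library had 9 of them, the transgenic one.

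Tests within a class ran in hormone-rich cells, Som, Lac, Mel and Gona where each library of the compared groups had at least 20 cells. They again used edgeR across all genes of the class. The tests in Gona, in Mel for lactation and the transgene, and in Lac for the transgene are not given. In the hormone-rich class 5 of the 6 genes passed the filter on low counts and 8 of 4290 genes were called between the sexes (0.186%), with Gal and Crhbp among them. None of the 6 genes passed the filter with only the 8-week wild-type libraries in the fit. The filter asks for enough counts in as many libraries as the smallest group holds. With all groups in the fit, a single library where a gene is high can bring it into this test. No fitted difference or p-value is therefore given for Gal and Crhbp. Neither gene was called without female replicate 2, which held 32 of the 34 female Crhbp UMIs, or with DESeq2. Prl entered the choice of hormone-rich cells and had the sex difference given above, and its part in the levels of this class was not tested.

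In Som 5 of the 6 passed the filter and 9 of 8014 genes were called between the sexes (0.112%), again with Gal and Crhbp among them. Gal differed by -1.88 (SE 0.38, edgeR adjusted p = 0.0234), and with the replicate block by -1.90 (edgeR adjusted p = 0.025). Levels by class had entered the choice of Gal, so this call gives no independent support. Without female replicate 3, in which 35 of 38 Gal UMIs in Som came from 1 barcode, the Gal difference was -1.48 (edgeR adjusted p = 0.522), and a fit without that barcode alone was not run. Gal did not pass with only the libraries of the 2 groups (edgeR adjusted p = 0.187), with DESeq2 (adjusted p = 0.679), under a stricter gate (edgeR adjusted p = 0.0924) or without replicate 1 of either sex or male replicate 2 (edgeR adjusted p = 0.43, 0.404 and 0.206). Crhbp, with 17 female and 0 male UMIs, did not pass the filter with only the 8-week wild-type libraries, so no fitted difference or p-value is given for it. In Mel 3 of the 6 passed the filter, 5 of 6076 genes were called (0.0823%) and none of the 6 was, with Nmb at -1.27 (SE 0.46, edgeR adjusted p = 0.999).

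In Som the virgin library had 3 Crhbp UMIs (0.0686 per 10000) and the lactating ones 46 and 84 (1.23 and 1.31). Crhbp was 1 of 2 genes called there in lactation among 8014 (0.025%). It did not pass the filter in Som with only the 8-week wild-type libraries. With all groups in the fit, a single library where it is high, such as a lactating one, can bring it in. No fitted difference or p-value is therefore given for Crhbp. It was not called with DESeq2 or without lactating replicate 2. In the same libraries Prl in Som was 406 and 533 UMIs per 10000 in lactation and 302 in the virgin, and Crhbp per 1000 Prl UMIs was 3.03 and 2.45 against 0.227. The virgin value rests on its 3 UMIs. Som of the 8-week females held 7, 1 and 9 Crhbp UMIs, with ratios to Prl of 0.17, 0.412 and 5.19. Som of the transgenic library held 4, with a ratio of 1.46. In lactation against the virgin, the ratio was 3.96 and 3.34 against 2.97 in Lac and 0.969 and 2.28 against 1.35 in MacPh. Barcodes below the cell filters held 3.02 Crhbp UMIs per 10000 in lactating replicate 1 and 1.75 in the virgin, and the part of free RNA in the Som value was not tested.

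In the other class comparisons given here, none of these genes was called in the main fit. In the hormone-rich class 3 of 4290 genes were called in lactation (0.0699%), with Crhbp at 1.28 (SE 0.50). In the transgenic comparison 13 were called there (0.303%), with Gal at 1.58 (SE 0.49). Without wild-type female replicate 2, the wild-type female library with the most Gal in this class, that Gal value was 3.56. As in the sex comparison, a single library where a gene is high can bring it past the filter of this class. Crhbp held 151 and 362 UMIs in this class in the lactating libraries, and Gal was highest in the transgenic library. These values are therefore given as sizes, without a p-value, and are not read as tests. In Lac 3 of the 6 genes passed the filter and 3 of 3529 genes were called in lactation (0.085%), with Crhbp at 0.74 (SE 0.48, edgeR adjusted p = 1). In Som the transgenic comparison called 5 of 8014 genes (0.0624%), with Penk at -3.87 (SE 1.22, edgeR adjusted p = 0.446).

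The transcripts were then set against the hormone content of cells within each library, a description added after the values were seen. Cells of each library were split into quartiles by the share of Prl in their UMIs. Crhbp was higher in the highest than in the lowest Prl quartile in all 7 female libraries, and in the 3 male libraries both quartiles were at 0. It went from 0.362 to 6.39 UMIs per 10000 in lactating replicate 1, from 0.805 to 4.94 in lactating replicate 2 and from 0.155 to 3.34 in the virgin. In the 8-week females it went from 0.0106 to 0.602, from 0.0668 to 1.98 and from 0 to 0.954, and in the transgenic from 0.0602 to 1.72. The female 10x library had its highest value, 0.82, in the third quartile.

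Gal was higher in the top than in the bottom Prl quartile in 10 of 10 libraries. It went from 0.506 to 5.88 in the transgenic library, where the top quartile stood at 4.55 without its highest barcode. In 8-week female replicate 2 it went from 0.167 to 3.89. In 8-week female replicate 3 it went from 0.102 to 0.186, with 4 and 7 UMIs. The second quartile of that library was higher, at 0.636, but 0.0177 without its highest barcode. In the males Gal went from 0.0249 to 0.251, from 0.25 to 0.405 and from 0.0591 to 0.259. Gal was also higher in the top than in the bottom Gh quartile in 9 of 10 libraries. Crhbp was higher in the top Gh quartile in 1 library, lower in 7 and equal in 2, and with Gh, Prl and Pomc out of the denominator higher in 4, lower in 4 and equal in 2.

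Penk differed by Gh share. It was higher in the top than in the bottom Gh quartile in 10 of 10 libraries, from 0.154 to 0.837 in the virgin and from 0.0132 to 0.423 in lactating replicate 1, and higher in the top Prl quartile in 4 of 10. Nmb was higher in the top Pomc quartile in 10 of 10 libraries, from 0.0524 to 0.788 in the female and from 0.0334 to 1.01 in the male 10x library, where the top quartile stood at 0.458 without its highest barcode. Chst8 was also higher in the top Pomc quartile in 10 of 10, from 0.152 to 0.596 in the female 10x library, and in the top Prl quartile in 9 of 10. With cells thinned to 300 UMIs the count of libraries with a higher share in the top quartile was 7 for Crhbp, 9 for Gal, 8 for Penk, 10 for Nmb and 6 for Chst8, with 3 libraries lower and 1 equal for Chst8, and 7 for Chst8 by Prl share.

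**Figure D4:**
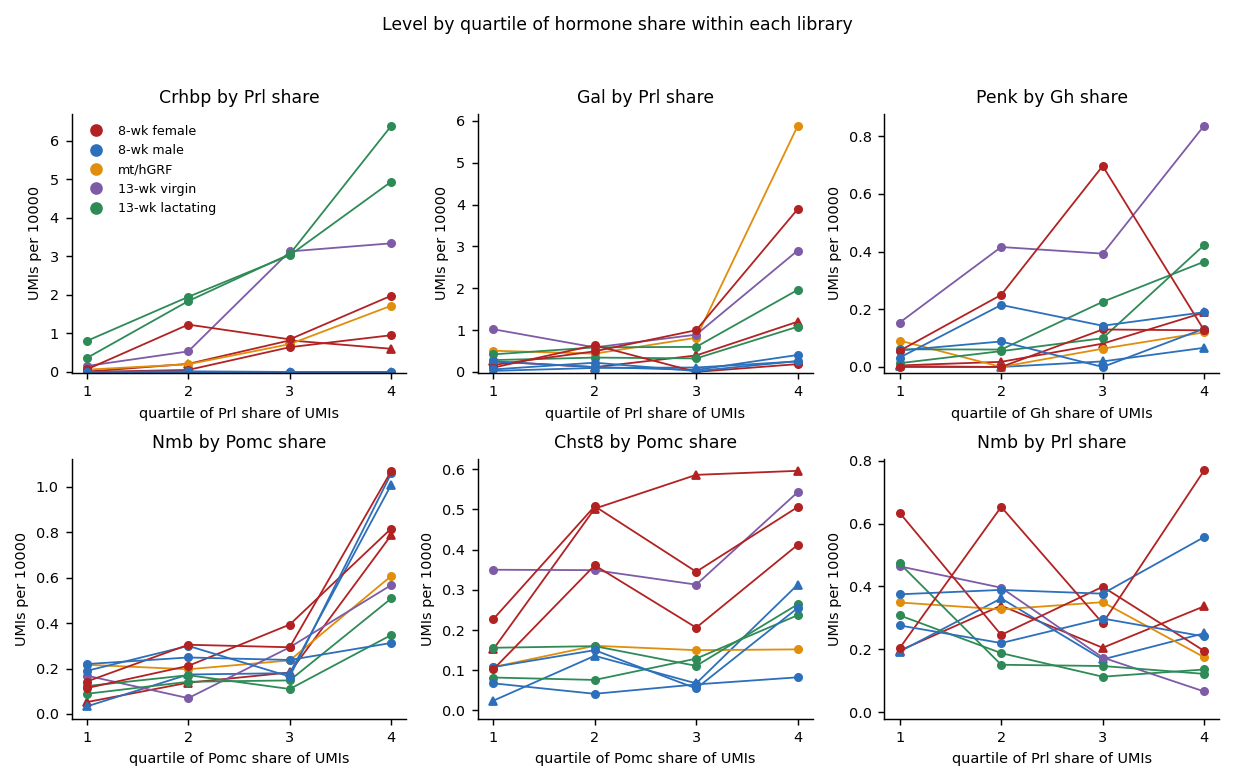
UMIs per 10000 (y axis) of a gene in cells grouped into quartiles of their Prl, Gh or Pomc share of UMIs (x axis), 1 line per library coloured by group, triangles for 10x and circles for Drop-Seq. Crhbp reaches 6.39 in the top Prl quartile of lactating replicate 1 and stays near 0 in the males, and Gal reaches 5.88 in the mt/hGRF library.

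The share of cells with a Crhbp UMI was higher among cells with Gal than among cells without it in 6 of the 7 female libraries, with no test run. In lactating replicate 2, 35.7% of the 319 cells with a Gal UMI also held Crhbp, against 16.1% of cells without Gal, and in lactating replicate 1 the shares were 32.7% of 98 cells and 15.4%. In the virgin library they were 20.1% of 229 cells and 7.31%. They were 8.74% and 3.58% in 8-week female replicate 1, 13.1% and 5.93% in replicate 2 and 6.34% and 2.15% in the transgenic. In 8-week female replicate 3 none of the 12 cells with Gal held Crhbp, against 2.59% of the others. Cells with Gal were deeper, with a median of 1090 against 683 UMIs in lactating replicate 2, 1080 against 702 in replicate 1 and 712 against 526 in the virgin, as they were in the other female libraries, and depth was not matched in these shares.

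Genes with the most similar class pattern were named by Pearson correlation of log2(UMIs per 10000 + 0.1) over 13 classes, including the ungated cells, averaged over the 8-week wild-type libraries, among 12099 genes. The classes come from the same libraries, so the values are descriptions. For Gal the nearest were Unc5c (r = 0.896), Cish (0.886), a cytokine-induced inhibitor of signalling, and Bcat1 (0.875), an enzyme of branched-chain amino acid metabolism. For Crhbp they were Plcd1 (0.917), a phospholipase C, Tmem45a (0.858) and Itpr3 (0.857), an inositol trisphosphate receptor of calcium stores. For Nmb they were Tox3 (0.929), Rnf208 (0.902) and Cyp2u1 (0.88), and for Penk Sytl4 (0.886), a protein of secretory granule docking, Fam183b (0.853) and Arhgap36 (0.832). For Chst8 they were Pgr (0.893), the progesterone receptor, Cnksr1 (0.853) and Sh3bgr (0.846). The class with the highest mean was not always shared. Gal and Bcat1 were highest in hormone-rich cells, but Unc5c and Cish in Som. Penk was highest in Som, but its 3 genes in the class gated on corticotrope markers. Nmb and Tox3 were highest in Mel, but Rnf208 and Cyp2u1 elsewhere. Chst8, Pgr and Cnksr1 were highest in Gona, but Sh3bgr in hormone-rich cells. Crhbp and its 3 genes were highest in the collagen-marker class.

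Genes that act with these peptides were followed as 3 lists in the summed libraries. Of 15 peptide receptors 7 had a row in all tables and 6 were tested, and none passed in any of the 3 comparisons. The highest in 8-week libraries were Sort1, a sorting receptor that binds neurotensin, at 0.174 UMIs per 10000, Crhr1, the receptor for corticotropin-releasing hormone, at 0.0903 and Ntsr2 at 0.0787. Their median log2 difference was 0.27 in males over females, -0.28 in lactation and -1.12 in the transgenic library, where the medians over all genes tested were 0.01, 0.01 and -0.03.

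Of 22 other local peptides 7 were tested and none passed, with medians of 0.07, 0.24 and -0.02 in the same order. The highest were Oxt, Avp and Cartpt, at 0.0845, 0.0787 and 0.0693 UMIs per 10000, the first 2 being hormones of the posterior lobe. All 8 genes of the glycoprotein hormone and sulfation list were tested, and Fshb, the follicle-stimulating hormone subunit, was the 1 that passed, higher in males by 4.59 (log2, SE 0.56, edgeR adjusted p = 0.0026). Cga, the subunit that glycoprotein hormones share, stood at 13.84 UMIs per 10000, Lhb at 1.935 and Tshb at 1.25. The medians of that list were 0.31, -0.42 and -0.20, against the -1.76 of Chst8 between the sexes given above.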

How the data were processed

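The authors deposited UMI counts per gene and barcode for 10 libraries. Per the paper's methods Drop-Seq reads were mapped to mm10 with exonic reads on the annotated strand counted, and 10x reads went through Cell Ranger; the submitters' processing notes also name STAR 2.5.2a. Replicates were not pooled between libraries, and each 10x matrix held 100000 barcodes. From these counts, cells were kept with a mitochondrial share under 0.1 and 200 to 3000 genes (10x) or at least 300 UMIs and 100 to 4000 genes (Drop-Seq). No doublet caller was run.

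Classes came from the Poisson tail of marker counts (score of at least 1.5, margin of 0.5 over the next class, at least 2 marker UMIs). These limits were set after several limits had been tried on the cells, and the stricter gate used 2.5 and 1. Of the markers, those of 4 classes came partly from the study's marker table of these samples. Intervals and floors of 3 counts cover counting error only. Zero rows in Drop-Seq tables are not listed there, so a gene without a row is named as such.

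UMIs were summed per library, or per library and class, and fitted with edgeR 4.0.16 (R 4.3.3; TMM factors, platform as covariate, all groups in 1 fit, filterByExpr). DESeq2 1.42.0 was an alternative. Python 3.11.15, numpy 2.4.6, scipy 1.17.1 and pandas 2.3.3 did the rest. The fits were tested on simulated data. P-values measure the spread between libraries, which may be technical. Same-numbered 8-week libraries deviated together (r = 0.878, 0.577 and 0.713 over 11739 genes), the first pair by platform, so the replicate number was also fitted as a block.

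The genes and the lists were chosen with earlier results of these data known. The text names the 7 genes, list members that passed or had the 3 highest levels, and the 3 genes closest in class pattern. The quartiles, the values without the highest barcode and the Drop-Seq-only fits were added after seeing the data.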

Additional observations from a re-analysis of the deposited data

Results flagged for a closer look

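Barcodes that fell below the cell filters entered no comparison, and in 12 cases they held more of Gal, Nmb, Penk or Chst8 per 10000 UMIs than the upper bound of the 95% exact interval of the kept cells of the same library. Cases at or under 3 UMIs, smaller excesses inside that interval, and the transgenic and second lactating libraries, with few UMIs in such barcodes, are not counted. Crhbp was looked at and gave no case, and Vip was left out for its few UMIs, with 0.0216 in such barcodes of the 10x male library against 0.00197 in its kept cells. In the 10x female library they held 1.04 Gal (kept cells 0.452), 0.836 Nmb (0.25) and 0.123 Penk (0.0587). In the 10x male library they held 0.246 Gal (0.0748), 0.427 Nmb (0.22), 0.0431 Penk (0.0157) and 0.138 Chst8 (0.0866). Gal stood at 0.985 in lactating replicate 1 (0.512) and at 2.17 in 8-week female replicate 2 (1.41). Penk stood at 0.167 in 8-week female replicate 2 (0.0625) and at 0.209 in male replicate 2 (0.071), and Chst8 at 0.167 in male replicate 3 (0.0654). The 10x barcodes below the filters held a mean of 29 (female) and 24.4 (male) UMIs each. No group held enough libraries for a check of single outlying libraries.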

How the results depend on the processing

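Of 509 values recomputed under alternatives, 411 kept their direction and side of the threshold, or stayed within the spread between libraries, or, for a count, within 1.5 times. Counts of all genes called moved as follows. Between the sexes the 13 genes in summed libraries became 22 with DESeq2, 32 with the replicate block, 8 in gated cells only and 7 in Drop-Seq libraries only, and the replicate block moved Gal and Chst8 past the threshold; in Mel 5 became 3 with DESeq2, 3 with only the 2 groups and 8 with the block. In the hormone-rich class 8 became 4 with DESeq2 and 4 with only the 2 groups, and in Som 9 became 5 with DESeq2, 16 without a filter and 2 with only the 2 groups. In the hormone-rich class the 6 genes failed the filter with 2 groups or the block, so no blocked value exists there. In lactation 0 became 5 with DESeq2, 10 with only the 2 groups, 1 in gated cells and 1 in Drop-Seq libraries; hormone-rich 3 became 1 with DESeq2; Som 2 became 0 with DESeq2, 7 without a filter and 15 with the 2 groups; Lac 3 became 1 with DESeq2, 1 without a filter, 6 with the 2 groups and 0 under the stricter gate. In the transgenic comparison 8 became 22 with DESeq2, 17 with the 2 groups, 14 in gated cells, 5 without the highest barcode of each gene and 1 in Drop-Seq libraries; hormone-rich 13 became 2 with DESeq2 and 7 under the stricter gate; Som 5 became 1 with DESeq2, 18 without a filter and 1 under the stricter gate. Leaving out 1 library at a time gave 7 to 15, 0 to 0 and 0 to 49 genes in summed libraries for sex, lactation and transgene, 5 to 14, 1 to 5 and 4 to 13 in hormone-rich cells, 4 to 15, 1 to 2 and 1 to 10 in Som, 1 to 3 in Lac (lactation) and 3 to 10 in Mel (sex). For means of the 8-week females it also gave Gal in hormone-rich cells 0.877 to 2.51 UMIs per 10000 and Crhbp in Lac 0.997 to 2.46. For means of all 8-week wild-type libraries it gave Nmb in Mel 0.62 to 0.771, Penk in Som 0.197 to 0.431 and Chst8 in Gona 0.408 to 0.603.

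Reversed signs, none of them called, were Nmb between the sexes without male replicate 3 (0.14, range -0.47 to 0.14), Nmb in lactation without lactating replicate 1 (0.08, range -0.43 to 0.08) and in gated cells only (0.45), and in the transgenic comparison Crhbp without female replicate 2 (0.89 in summed libraries, range -0.72 to 0.89; 4.74 in hormone-rich cells, range -1.68 to 4.74) and Vip without female replicate 3 (-0.18, range -0.18 to 0.82). The 4.74 of Crhbp in hormone-rich cells is not read as a difference. The wild-type female libraries left in that fit, replicates 1 and 3, held 2 and 0 Crhbp UMIs in this class. A single library where Crhbp is high can bring it past the filter there, so the whole range from -1.68 to 4.74 is not read as a test. With Gh, Prl and Pomc out of the denominator Gal in hormone-rich cells was 3.5 UMIs per 10000. Shares of cells with a UMI became 3.64% (Gal, hormone-rich), 1.28% (Nmb, Mel) and 0.382% (Penk, Som) after thinning, and 2.79% (Nmb, Mel), 0.42% (Penk, Som) and 0% (Chst8, Gona) when 2 UMIs were required. The cause of these moves was not tested, except that thinning and the 2-UMI rule lower shares by construction. Depth limits Vip, Nts and the class levels of Penk and Chst8, which rest on few UMIs per library.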
